A study of Mus musculus with 23 samples.

Results

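The MITF/TFE transcription factors and the lysosome were examined at the mRNA level in mouse lung tumor cells, using 39 genes chosen by symbol: the 4 factors Mitf, Tfeb, Tfe3 and Tfec, and 35 genes encoding lysosomal proteases, glycosidases, lipid-handling proteins, membrane and cargo proteins and subunits of the V-ATPase. All 39 symbols were found among the 35455 genes of one table of normalized counts and the 35454 of a second, and all 39 passed the filter used for testing (a mean of at least 10 normalized counts over a table's libraries). The rule that picks them uses symbols and no measured value, though the list was drawn up with earlier results of these data known. RNA came from tdTomato+ tumor cells sorted from single mice, each with the Braf CAT allele (Braf CAT/+), which expresses BRAFV600E once Cre has acted. Cre was delivered to the airways with an adenovirus in which an Sftpc promoter restricts it to alveolar type 2 (AT2) pneumocytes, and the mice, 3 to 4 months old, were on a mixed C57BL/6, 129 and FVB background. The first table held 6 libraries of BRAFV600E tumor cells (1 at 2 weeks, 3 at 6 weeks and 2 at 12 weeks post infection, p.i.) and 8 of BRAFV600E/PI3KαH1047R tumor cells, which also carried a latent Pik3ca H1047R allele (2 at 2 weeks, 4 at 6 weeks and 2 at 12 weeks). The second table held 5 libraries of BRAFV600E/PGC1αHet cells (Ppargc1a lox/+) and 4 of BRAFV600E/PGC1αNull cells (Ppargc1a lox/lox), from littermates at 12 weeks. No library of normal, uninfected lung belongs to these groups, and the 12 week mice had received a lower virus dose than the 2 and 6 week mice, so time p.i. and dose cannot be told apart there.

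MITF, TFEB, TFE3 and TFEC are related basic helix-loop-helix leucine zipper proteins that bind DNA as dimers of one another. TFEB, TFE3 and MITF activate genes of the lysosome and of autophagy through an E-box within the CLEAR (coordinated lysosomal expression and regulation) element, whose core reads CACGTG. Their activity is set mainly by location: mTORC1, which lies downstream of PI3-kinase, phosphorylates them at the lysosome surface and keeps them in the cytoplasm, so that mRNA levels report neither their phosphorylation nor their entry into the nucleus. AT2 pneumocytes store surfactant in lamellar bodies, organelles related to lysosomes that hold several lysosomal proteins.

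The E-box was sought in RefSeq promoter windows (GRCm38.p6, 250 bases before to 50 after each annotated start), which were held for 34 of the 39 genes. Ctsb, Npc1, Asah1, Atp6v1b2 and Atp6v1h had no entry. CACGTG, which reads the same on both strands, was present for 13 of 34 genes (38.2%) and for 8.09% of all 27025 genes with a window. The longer palindrome TCACGTGA, which contains it, was present for 7 of 34 (20.6%) against 1.12%. The related M-box core TCATGTG, sought on both strands and not containing CACGTG, was present for 5 of 34 (14.7%) against 4.31%. None of the windows of Mitf, Tfeb, Tfe3 or Tfec held CACGTG. A match is a string of letters and not a measured binding site, and a missing match refers only to these windows. The 250 bases upstream of the start are shown for 6 genes that the results below turn on or that hold several matches, 5′ to 3′ on the gene's strand, with each CACGTG in capitals. The windows are those of Ctsd (chr7:142387828-142388077, minus strand), with matches starting 245 and 98 bases before the start, of Mcoln1 (chr8:3500269-3500518, plus strand), with matches at 71 and 45, of Lamp1 (chr8:13158911-13159160, plus strand), with 4 matches between 61 and 15, of Atp6v0b (chr4:117887330-117887579, minus strand), with matches at 36 and 18, and of Ctsc (chr7:88277835-88278084, plus strand) and Npc2 (chr12:84773113-84773362, minus strand), with none.
Ctsd: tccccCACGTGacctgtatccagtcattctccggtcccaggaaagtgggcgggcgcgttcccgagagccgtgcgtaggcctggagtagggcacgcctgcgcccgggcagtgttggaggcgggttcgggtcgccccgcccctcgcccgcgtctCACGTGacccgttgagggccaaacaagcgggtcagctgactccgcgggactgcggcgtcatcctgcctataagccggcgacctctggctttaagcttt
Mcoln1: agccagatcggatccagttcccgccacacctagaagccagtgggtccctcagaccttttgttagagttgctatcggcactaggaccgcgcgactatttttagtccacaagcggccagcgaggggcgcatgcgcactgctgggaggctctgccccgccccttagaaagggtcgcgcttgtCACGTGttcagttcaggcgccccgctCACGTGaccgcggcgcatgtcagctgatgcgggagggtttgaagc
Lamp1: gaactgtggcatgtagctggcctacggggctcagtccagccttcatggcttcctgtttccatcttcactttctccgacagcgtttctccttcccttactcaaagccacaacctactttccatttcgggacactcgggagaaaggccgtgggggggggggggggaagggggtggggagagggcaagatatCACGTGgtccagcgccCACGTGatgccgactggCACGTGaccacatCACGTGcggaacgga
Atp6v0b: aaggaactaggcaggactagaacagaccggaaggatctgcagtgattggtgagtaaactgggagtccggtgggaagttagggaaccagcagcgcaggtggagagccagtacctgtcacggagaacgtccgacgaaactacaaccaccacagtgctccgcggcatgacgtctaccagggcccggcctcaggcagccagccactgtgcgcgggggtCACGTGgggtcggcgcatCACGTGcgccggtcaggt
Ctsc: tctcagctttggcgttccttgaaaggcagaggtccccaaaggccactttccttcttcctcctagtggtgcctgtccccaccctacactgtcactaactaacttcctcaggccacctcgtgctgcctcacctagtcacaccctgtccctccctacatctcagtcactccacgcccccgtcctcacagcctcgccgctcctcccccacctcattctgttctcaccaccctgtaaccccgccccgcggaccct
Npc2: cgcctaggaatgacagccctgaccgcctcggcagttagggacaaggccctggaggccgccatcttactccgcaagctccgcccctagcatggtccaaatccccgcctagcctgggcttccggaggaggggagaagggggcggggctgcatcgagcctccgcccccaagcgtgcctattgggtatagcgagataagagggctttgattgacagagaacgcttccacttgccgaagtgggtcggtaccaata

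Some libraries stood apart, and their values bear on the comparisons that follow. The sum of normalized counts ran from 16433820 to 20287296 per library in the first table and from 7115753 to 9159567 in the second. The values are not whole reads, so the sequencing depth behind them is unknown and no counting interval is given. AT2 markers were high in every library (a mean of 11.55 to 15.30 on the log2 scale over 12 genes in the first table and 13.02 to 13.81 in the second), and none was at 0 in any library. Their summed level in the first table ran from 86676 to 1424739, with the lowest levels in BRAFV600E/PI3KαH1047R 2 week replicate 2 (11.55), 2 week replicate 1 (12.68) and 6 week replicate 1 (13.28). The same 3 libraries had the highest endothelial levels over 10 genes, 11.87, 11.97 and 12.31, against 8.45 to 11.21 in the other 11. Macrophage markers, 19 genes measured, reached a mean of 9.36 in BRAFV600E/PI3KαH1047R 12 week replicate 1 and 5.30 to 7.27 elsewhere. Both 12 week BRAFV600E/PI3KαH1047R libraries went against their sex labels by Y-linked transcripts (Kdm5d had 502 normalized counts in replicate 1, given as male, and 4728 in replicate 2, given as female). They belong to 1 group, so exchanging the labels would change no comparison of genotype or week except the setting with sex as a factor. Ppargc1a, the gene deleted in the second cohort, measured 76, 170, 155, 200 and 561 in the 5 BRAFV600E/PGC1αHet libraries and 73, 38, 52 and 124 in the 4 BRAFV600E/PGC1αNull libraries, a log2 difference of -1.51 (SE 0.50, limma unadjusted p = 0.0105, adjusted p = 0.978). The ranges overlapped. In the first table Ppargc1a differed by -1.92 with PI3KαH1047R (SE 0.45, limma adjusted p = 0.225, exact permutation p = 0.00266). Pik3ca, whose altered allele replaces the normal one so that its level does not check the labels, differed by -0.54 (SE 0.26, limma adjusted p = 0.730).

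Mitf was the factor with the largest difference between BRAFV600E/PI3KαH1047R and BRAFV600E cells. In the single BRAFV600E library at 2 weeks it measured 522 normalized counts, against 375 and 115 in the BRAFV600E/PI3KαH1047R libraries. At 6 weeks the values were 846, 477 and 292 against 146, 255, 486 and 302, and at 12 weeks 771 and 1140 against 551 and 291. All 8 BRAFV600E/PI3KαH1047R libraries lay below the mean of the BRAFV600E libraries, though the groups overlapped (292 to 1140 against 115 to 551). Over all weeks the log2 difference was -1.13 (SE 0.38), with an unadjusted limma p = 0.00856, an adjusted p = 0.511 and a two-sided exact permutation p = 0.0183 over the 14 libraries. The difference thus did not pass the test across all genes. It had the same sign at 2 weeks (-1.32), 6 weeks (-0.85) and 12 weeks (-1.23), and the difference of the effect between weeks was not called (limma adjusted p = 0.916, 1.00 and 0.985). In these sorted bulk samples, fewer cells of a type and less RNA per cell cannot be told apart. Mitf followed the cell markers: across the 14 libraries its Pearson r was 0.72 with the AT2 marker level and -0.73 with the endothelial level. With the endothelial level as a term the genotype difference was -0.71 (SE 0.33, limma unadjusted p = 0.0451, adjusted p = 0.826), and without the 3 libraries of highest endothelial level it was -0.77 (SE 0.34, adjusted p = 0.765). With the macrophage level as a term it was larger, -1.58 (SE 0.37, limma unadjusted p = 0.000633, adjusted p = 0.310). By label most BRAFV600E libraries were from females and most BRAFV600E/PI3KαH1047R libraries from males. With sex as a factor the Mitf difference was -1.12 (SE 0.44, limma adjusted p = 0.953).

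The other factors did not separate the genotypes, and no week comparison called any of the 4. Tfeb, whose product is the best studied regulator of lysosome genes, had 15.5, 94, 126, 131, 167 and 200 normalized counts in the BRAFV600E libraries in order of size, and a lowest, median and highest value of 38.3, 95.0 and 257 in BRAFV600E/PI3KαH1047R libraries. Its log2 difference was -0.10 with an SE of 0.55 (limma adjusted p = 0.980), an error wider than that of Mitf. Tfe3 ran from 587 to 1255 and from 425 to 1236, with a log2 difference of -0.24 (SE 0.23, limma adjusted p = 0.858). Tfec, a family member best known from macrophages, was low, at 2.5 to 61 and 3.2 to 172, with a difference of 0.60 (SE 0.79, limma adjusted p = 0.894). Its highest value, 172, was in the library with the highest macrophage markers. In the BRAFV600E/PGC1αNull cells Mitf measured 102, 175, 111 and 225, against 141, 135, 206, 139 and 236 in BRAFV600E/PGC1αHet cells, a log2 difference of -0.19 (SE 0.31, limma adjusted p = 0.998). Tfeb, Tfe3 and Tfec differed there by -0.03 (SE 0.44), -0.25 (SE 0.25) and 0.72 (SE 0.67), with the same adjusted p. In GRCm38 (GENCODE M21) the genes lie at chr6:97807052-98021349 (Mitf, plus strand), chr17:47737030-47792419 (Tfeb, plus), chrX:7762560-7775202 (Tfe3, plus) and chr6:16833373-16898441 (Tfec, minus), and under 0.3% of the 31-base words of each gene's exons occur in another gene. Each value sums all transcripts of a gene, including the several Mitf isoforms that start at different promoters.

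**Figure D1:**
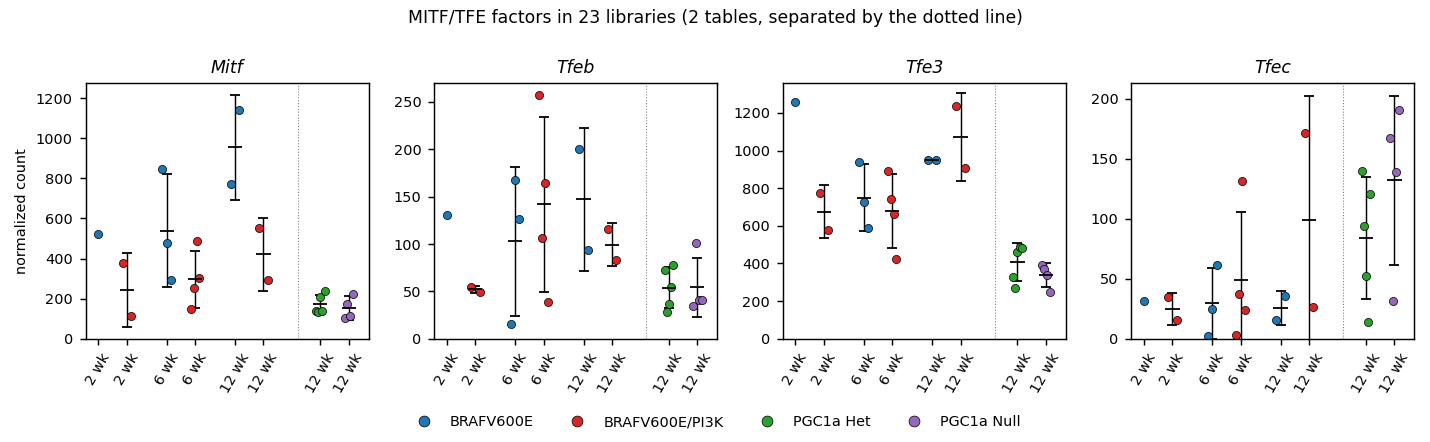
Normalized counts (y axis, linear from 0) of the 4 factors in each library (points), by genotype (color) and week p.i. (x axis), with the mean and SD of each group of 2 or more libraries (SD bars stop at the axis). Mitf ran from 292 to 1140 in BRAFV600E and from 115 to 551 in BRAFV600E/PI3KαH1047R cells, and the tables on each side of the dotted line were normalized separately.

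With PI3KαH1047R the lysosome genes moved in both directions and none was called. Of the 39 genes 22 had a higher mean and 17 a lower one, and the median log2 difference was 0.02, the same as over all genes. By role, 3 of 8 proteases, 2 of 6 glycosidases, 5 of 6 lipid-handling genes, 5 of 7 membrane and cargo genes and 6 of 8 V-ATPase subunits were higher. No gene of the 39 passed the test over all weeks (limma, adjusted p under 0.05), beside 0.0228% of the 17558 genes tested, and only Mitf had an unadjusted p under 0.05, beside 6.83% of all genes. None of the 39 separated all 8 from all 6 libraries, which 0.211% of genes did. The next lowest p-values belonged to 2 subunits of the membrane sector of the V-ATPase, the proton pump that acidifies the lysosome, and to a protease and a lipase. Atp6v0b was 199 to 559 in BRAFV600E and 371 to 701 in BRAFV600E/PI3KαH1047R cells, a difference of 0.51 (SE 0.25, limma adjusted p = 0.730). Atp6v0c differed by 0.41 (SE 0.23), Tpp1, the tripeptidyl peptidase lost in one form of neuronal ceroid lipofuscinosis, by -0.33 (SE 0.17), and Lipa, lysosomal acid lipase, by 0.35 (SE 0.21), each with a limma adjusted p between 0.738 and 0.750. The SE of a lysosome gene was between 0.13 and 0.65 in this comparison. Mitf, at -1.13 with an SE of 0.38, was not called (limma adjusted p = 0.511). Differences well above the SE could therefore also be missed.

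At 2 weeks p.i. a single BRAFV600E library stood against 2 of the other genotype. The test assumed that the single library varied as the libraries of the other groups did. That library was from a female and the other 2 were from males (Y-linked Kdm5d 394 against 2965 and 2090 normalized counts). Genotype and sex therefore cannot be told apart at this week. The lowest p-values were those of Ctsc, Atp6v0a1, Atp6ap1, Npc2 and Tpp1. Ctsc, which encodes the dipeptidyl peptidase cathepsin C, measured 11434 in the BRAFV600E library and 1590 and 1462 in the others, a log2 difference of -2.91 (SE 0.71). Npc2, a carrier of cholesterol inside the lysosome, measured 11522 against 3473 and 1915 (-2.16, SE 0.79). Atp6v0a1, the subunit of the V-ATPase that helps to direct it to a membrane, measured 6655 against 903 and 1300 (-2.62, SE 0.76). All 3 were thus several-fold lower in both BRAFV600E/PI3KαH1047R libraries, which had the lowest AT2 levels and 2 of the 3 highest endothelial levels of the 14. Atp6ap1, an accessory V-ATPase subunit, went the other way, 1453 against 3577 and 3346 (1.25, SE 0.38). None of the 39 passed at this week (limma, adjusted p between 0.123 and 0.289 for these genes and Tpp1), beside 0.0171% of all genes, and 6 of 39 (15.4%) had an unadjusted p under 0.05, beside 13.5%. With the endothelial level as a term, the differences of Ctsc, Atp6v0a1 and Npc2 became -1.32, -0.97 and -0.38 (limma adjusted p = 0.523, 0.723 and 0.933). With the macrophage level as a term they were -2.96, -2.82 and -2.59 (limma adjusted p = 0.314, 0.341 and 0.377).

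At the later weeks the same genes showed no such gap. At 6 weeks Ctsc measured 21136, 17160 and 10038 in BRAFV600E cells and 18896, 16943 and 16923 in 3 of the BRAFV600E/PI3KαH1047R libraries, with 4712 in replicate 1, the library of highest endothelial level. Npc2 (4326 against 15969 to 17223) and Atp6v0a1 (2046 against 7146 to 10326) were low in that same library. None of the 39 genes passed at 6 weeks (limma, beside 0.0228% of all genes) or at 12 weeks (beside 0.0114%), and none had an unadjusted p under 0.05 at either week, beside 4.24% and 3.76%. The lowest p-values were those of Cd63, a tetraspanin of late endosomes, at 6 weeks (-0.42, SE 0.25, limma adjusted p = 1.00) and of Ctsz, a carboxypeptidase, at 12 weeks (0.93, SE 0.49, adjusted p = 1.00). After Cd63 and Mitf at 6 weeks came Atp6v0b (0.55, SE 0.36), Cln3 (0.46, SE 0.32) and Gusb, beta-glucuronidase (-0.47, SE 0.33), and after Ctsz and Mitf at 12 weeks came Lipa (0.63, SE 0.35), Hexa, a subunit of beta-hexosaminidase (0.53, SE 0.34), and Tpp1 (-0.37, SE 0.26). Cd63, Ctsf and Cln3 did not overlap between the genotypes at 6 weeks, 3 of 39 (7.69%), beside 5.22% of all genes. Cln3, the protein lost in juvenile Batten disease, measured 209, 186 and 212 in BRAFV600E and 367, 246, 257 and 256 in BRAFV600E/PI3KαH1047R cells (exact permutation p = 0.0286, the smallest that 3 against 4 libraries allow). The test of a changing genotype effect called none of the 39 between 6 and 2, 12 and 6 or 12 and 2 weeks (limma, 0% of all genes each time), with 3, 0 and 4 genes at an unadjusted p under 0.05, beside 8.95%, 2.87% and 9.1%. Ctsc had the lowest of these, with its effect 2.62 higher at 6 than at 2 weeks (SE 0.83, limma adjusted p = 0.414).

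**Figure D2:**
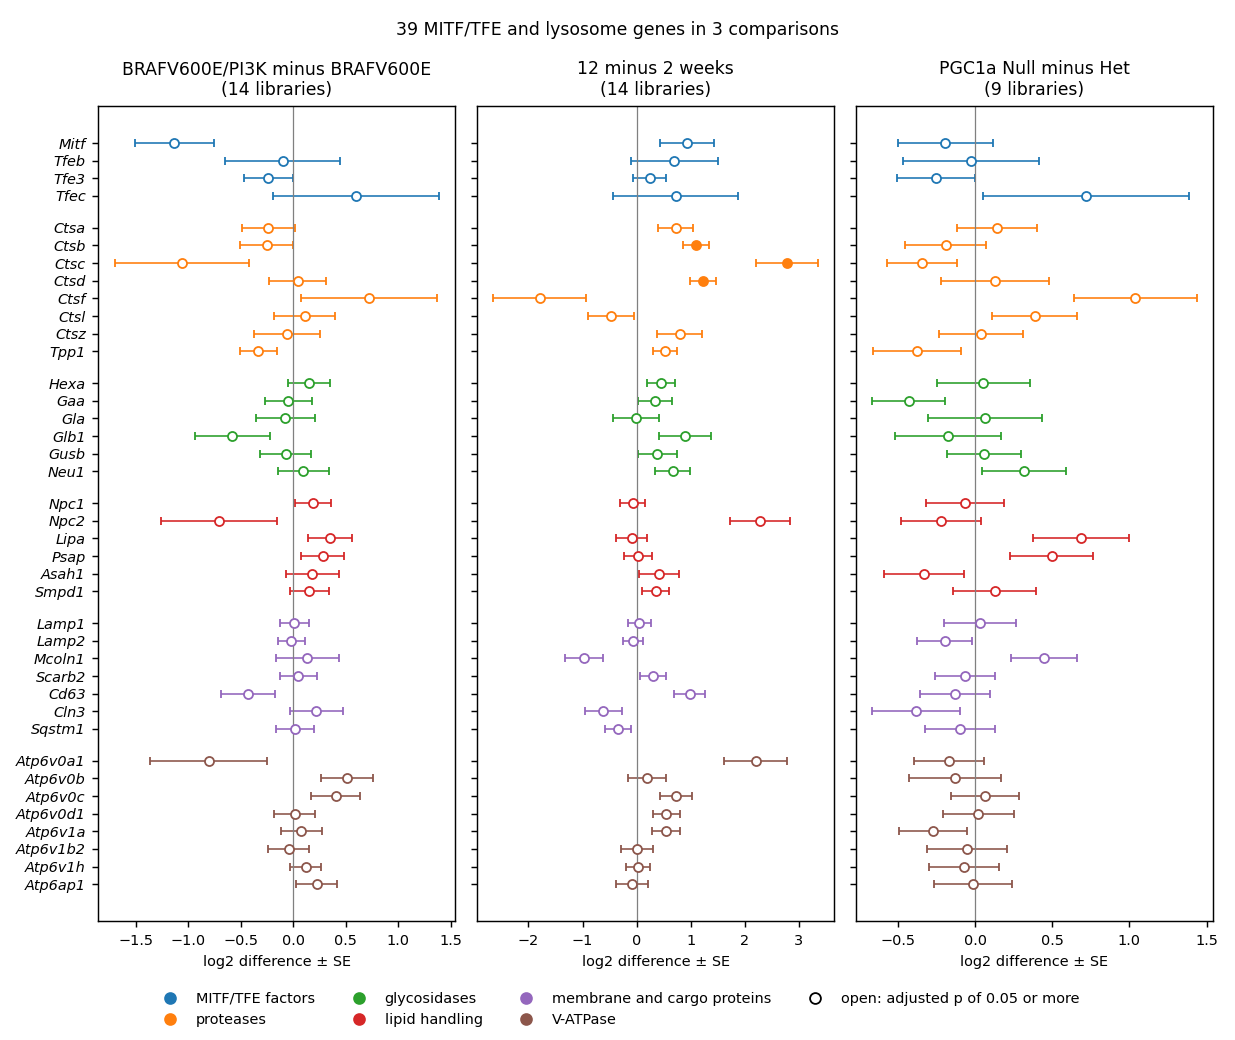
Log2 differences (x axis, log2 of normalized count + 1) with SE for the 39 genes (y axis, colored by role) in 3 comparisons: genotype in the first table, 12 against 2 weeks with genotype as a term, and BRAFV600E/PGC1αNull against BRAFV600E/PGC1αHet. Filled points, Ctsb, Ctsc and Ctsd in the middle panel, had an adjusted limma p under 0.05, and the x axes differ in range.

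Between 2 and 12 weeks p.i. 3 cathepsins rose, and 29 of the 39 genes had a positive difference with genotype as a term (median log2 difference 0.39, against 0.02 over all genes). Cathepsin D, the main aspartic protease of the lysosome, measured 2002 in the BRAFV600E library and 2787 and 1725 in BRAFV600E/PI3KαH1047R cells at 2 weeks. At 12 weeks it measured 3700 and 5983, and 5481 and 4846. With genotype as a term Ctsd rose by 1.23 (SE 0.24, limma adjusted p = 0.0378). Ctsb, a cysteine protease, went from 3548, 3702 and 4181 to 8656, 9791, 8680 and 6499, a rise of 1.10 (SE 0.24, limma adjusted p = 0.0496). Ctsc went from 11434, 1590 and 1462 to 19611, 34051, 19145 and 20577, a rise of 2.79 (SE 0.57, limma adjusted p = 0.0398). Each of the 4 libraries at 12 weeks was above each of the 3 at 2 weeks for these cathepsins (exact permutation p = 0.0286 each, the smallest possible). The 3 genes were 7.69% of the 39, beside 0.786% of all genes called, and 12 of 39 (30.8%) had an unadjusted p under 0.05, beside 17.1%.

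The calls lay close to the threshold. Ctsd, Ctsc and Ctsb were called in 11, 10 and 8 of 22 other settings, with log2 differences from 0.93 to 1.41, 1.00 to 3.73 and 0.96 to 1.33, always in the same direction, and leaving out 1 library in turn left between 0 and 5 of the 39 genes called, beside 0 to 493 of all genes (138 with every library), the highest without BRAFV600E/PI3KαH1047R 6 week replicate 1. None of the 3 was called with the macrophage marker level as a term (0.93, 3.16 and 1.01, limma adjusted p = 0.480, 0.408 and 0.465) or without the 3 libraries of highest endothelial level (1.20, 1.00 and 1.33, adjusted p = 0.223, 0.417 and 0.220). All 3 were called with the endothelial level as a term (1.13, 2.13 and 1.00). AT2 markers moved the same way over these weeks, with 12 of 12 higher at 12 weeks, 11 at an unadjusted limma p under 0.05 and a median log2 difference of 2.12. Of the macrophage markers 17 of 19 were higher (median 1.37), and all 10 endothelial markers were lower (median -0.93). The part of these markers in the rise was not tested beyond these settings, and the AT2 level was a term in none of them. Ctsd shares 33.2% of its 31-base exon words with other annotated genes, chiefly the overlapping Gm49369, and Ctsb 13%, so reads of these 2 may be divided with another gene, whereas Ctsc shares 0.604%.

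With genotype as a term the difference between 12 and 2 weeks was positive for 6 of 8 proteases, 5 of 6 glycosidases, 4 of 6 lipid-handling genes, 3 of 7 membrane and cargo genes and 7 of 8 V-ATPase subunits. Npc2 went from 11522, 3473 and 1915 to 16687, 28217, 25706 and 19229, and Atp6v0a1 from 6655, 903 and 1300 to 7719, 12078, 11951 and 8410. The log2 differences were 2.28 (SE 0.56, limma adjusted p = 0.0651) and 2.21 (SE 0.58, adjusted p = 0.0805), just short of a call. Mcoln1, the calcium channel TRPML1 that is a known target of TFEB, had the opposite sign: it measured 1580, 2540 and 1166 at 2 weeks and 763, 1005, 957 and 712 at 12 weeks (-0.97, SE 0.35, limma adjusted p = 0.173). Its promoter window is among those with E-boxes, as is that of Ctsd, while those of Ctsc and Npc2 are not. The groups of 2 and 12 weeks did not overlap for 9 of 39 genes (23.1%), beside 13.2% of all genes: Ctsa, Ctsb, Ctsc, Ctsd, Npc2, Atp6v0a1, Atp6v0d1 and Atp6v1a were higher at 12 weeks and Mcoln1 was lower.

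Between 2 and 6 weeks none of the 39 passed (limma, beside 0.0513% of all genes) and 7 of 39 (17.9%) had an unadjusted p under 0.05, beside 11.9%. The lowest were Ctsc (2.12, SE 0.51, limma adjusted p = 0.153), Ctsb (0.68, SE 0.21), Ctsd (0.66, SE 0.21), Npc2 (1.52, SE 0.50) and Atp6v0a1 (1.58, SE 0.52), the last 4 with an adjusted p between 0.248 and 0.271. Between 6 and 12 weeks 31 of 39 genes had a positive difference with genotype as a term (median 0.28), none passed (limma, 0% of all genes), and 3 of 39 (7.69%) had an unadjusted p under 0.05, beside 5.31%: Ctsd (0.58, SE 0.19), Hexa (0.51, SE 0.21), and Ctsb (0.42, SE 0.19), each with a limma adjusted p of 0.895 to 0.901. Tfe3 (0.53, SE 0.25) and Psap, the precursor of the saposins (0.43, SE 0.21), came next.

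**Figure D3:**
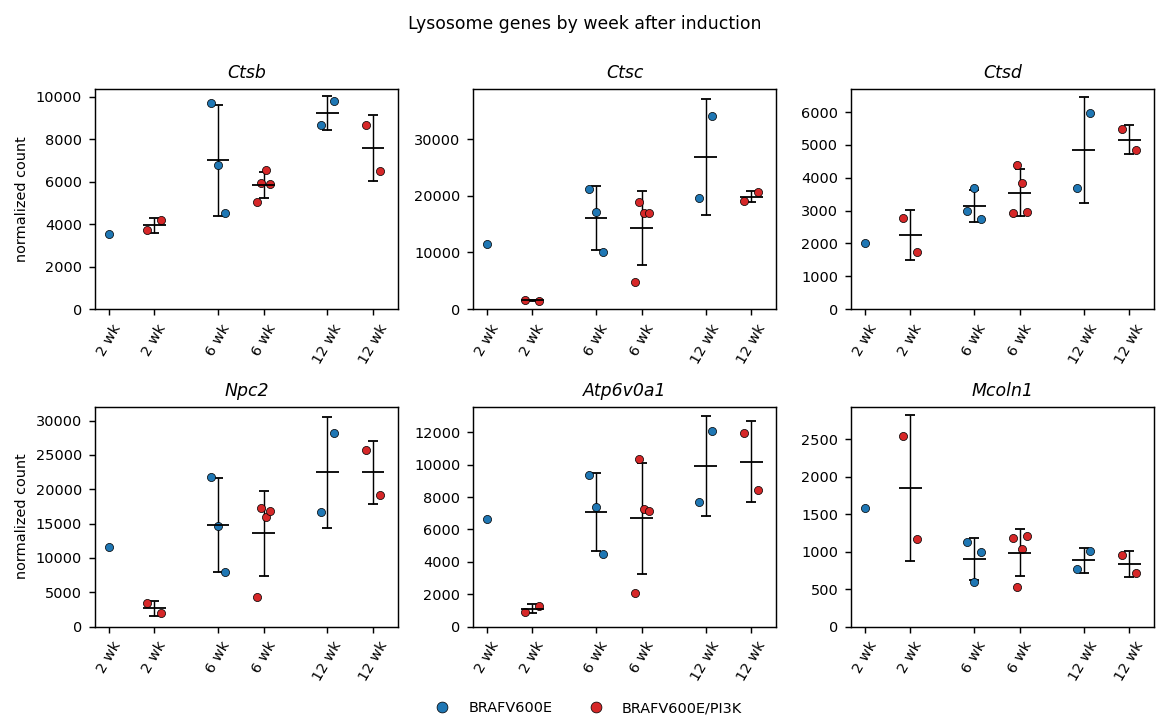
Normalized counts (y axis, linear from 0) of Ctsb, Ctsc, Ctsd, Npc2, Atp6v0a1 and Mcoln1 in each of 14 libraries (points) by week p.i. (x axis) and genotype (color), with mean and SD for groups of 2 or more. For Ctsc, Npc2 and Atp6v0a1 the 2 BRAFV600E/PI3KαH1047R libraries at 2 weeks and 1 of the 4 at 6 weeks (4712 for Ctsc) lie below the rest.

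Loss of the second Ppargc1a allele left the lysosome genes without a called change. PGC1α is a transcriptional coactivator of mitochondrial genes. Of the 39 genes 17 were higher and 22 lower in BRAFV600E/PGC1αNull cells (median log2 difference -0.05, against 0.01 over all genes). No gene of the 39 passed (limma, 0% of the 17424 genes tested), and 2 of 39 (5.13%) had an unadjusted p under 0.05, beside 3.83%. Ctsf, a cysteine protease at low level, measured 16, 20, 27, 42 and 26 in BRAFV600E/PGC1αHet and 39, 65, 52 and 57 in BRAFV600E/PGC1αNull cells (1.04, SE 0.40, limma adjusted p = 0.998, exact permutation p = 0.0238). Lipa measured 317, 430, 247, 481 and 717 against 795, 589, 865 and 470 (0.69, SE 0.31, limma adjusted p = 0.998, exact permutation p = 0.0952). For both genes all 4 BRAFV600E/PGC1αNull libraries lay above the mean of the other group while the ranges overlapped. None of the 39 genes separated the groups fully, beside 1.4% of all genes that did. Mcoln1 (0.45, SE 0.22), Psap (0.50, SE 0.27), and Gaa, acid alpha-glucosidase (-0.43, SE 0.24), came next, with the same limma adjusted p of 0.998. Across these 9 libraries Lipa had a Pearson r of 0.93 with the macrophage marker level, and 16 of 19 macrophage markers, 10 of 10 endothelial and 5 of 5 club cell markers were higher in BRAFV600E/PGC1αNull cells. The part of these cells in the values of Lipa was not tested.

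Whether the lysosome genes followed Mitf or Tfeb from library to library was addressed with the Pearson correlation of log2 values and with a limma slope of each gene on each factor. Across the 14 libraries of the first table, r with Mitf was positive for 22 of the 35 lysosome genes (median 0.19), and r with Tfeb for 14 of 35 (median -0.06). For Tfe3 the count was 27 of 35 (median 0.17) and for Tfec 17 of 35 (median -0.03). Over all genes between 48.5% and 50.2% were positive for each factor. Lysosome genes therefore spread to both sides of 0 for Mitf, with a group at high positive and a few at strongly negative values. For Tfeb they lay between -0.77 and 0.33. The mean log2 level of the 35 genes had an r of 0.60 with Mitf, -0.11 with Tfeb, 0.42 with Tfe3 and 0.08 with Tfec. The factors themselves did not move together: r was -0.08 between Mitf and Tfeb (Spearman rho 0.02, permutation p = 0.781 and 0.939) and 0.47 between Mitf and Tfe3 (rho 0.62, permutation p = 0.0857 and 0.0202, limma adjusted p of the slope of Mitf on Tfe3 = 0.969).

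The genes closest to Mitf were Npc2 (r = 0.74, rho 0.59), Cd63 (r = 0.72, rho 0.61) and Ctsc (r = 0.66, rho 0.65), and the farthest were Ctsl, cathepsin L (r = -0.71, rho -0.56), and Ctsf (r = -0.63, rho -0.52). The permutation p of r was 0.00251, 0.00344, 0.00991, 0.00411 and 0.0148 for these 5 of the 172 correlations computed on the 14 libraries, and limma gave an adjusted p over all genes of 0.0376, 0.0550, 0.0581, 0.0517 and 0.0878. Of the 35 lysosome genes Npc2 alone was called: it was 0.93 higher (SE 0.22) on the log2 scale for each doubling of Mitf. That is 1 of 35, beside 3.82% of all genes. An unadjusted p under 0.05 was found for 9 of 35, beside 21.9%, so their share lay near that of all genes. In the related lists described below, Ctsh (slope 1.22), Atp6v0a4 (1.44), Abca3 (0.81), Lamp3 (0.85), Arsb (0.39) and Bcl2 (-0.43) were also called. Their limma adjusted p-values were 0.0351 to 0.0473. Only the 2 lowest p-values of each list were read. Leaving out the 2 libraries farthest from the median of Mitf lowered r to 0.43 for Npc2, 0.42 for Cd63, 0.36 for Ctsc and -0.34 for Ctsl, a step that also narrows the range of Mitf.

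The genes highest for Mitf also had high correlations with the AT2 markers, and whether one exceeded the other was not tested. Across the same 14 libraries r with the AT2 marker level was 0.94 for Npc2, 0.95 for Ctsc, 0.90 for Cd63 and 0.89 for Atp6v0a1, and r with the endothelial level was -0.80, -0.75, -0.77 and -0.80. Ctsl had the opposite signs, -0.64 with AT2 and 0.74 with endothelial markers. With the AT2 level as a term the slope of Npc2 on Mitf was 0.17 (limma unadjusted p = 0.351, adjusted p = 0.875), and it was 0.41 (adjusted p = 0.976) with the endothelial level and 0.37 (adjusted p = 0.718) without the 3 libraries of highest endothelial level. With the macrophage level as a term it was 0.90 and stayed called (limma adjusted p = 0.0400). With the mean of each group removed, Npc2 still had a slope of 0.83 (limma unadjusted p = 0.000648, adjusted p = 0.163). Within genotypes r with Mitf was positive for 27 of 35 genes over the 6 BRAFV600E libraries (median 0.49). Over the 8 BRAFV600E/PI3KαH1047R libraries it was positive for 25 of 35 (median 0.32). For Tfeb the counts were 11 of 35 (median -0.32) and 23 of 35 (median 0.05). Over all genes these shares were between 49.0% and 50.5%. Within these genotypes Mitf itself had an r of 0.87 and 0.57 with the AT2 level and of -0.67 and -0.68 with the endothelial level.

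**Figure D4:**
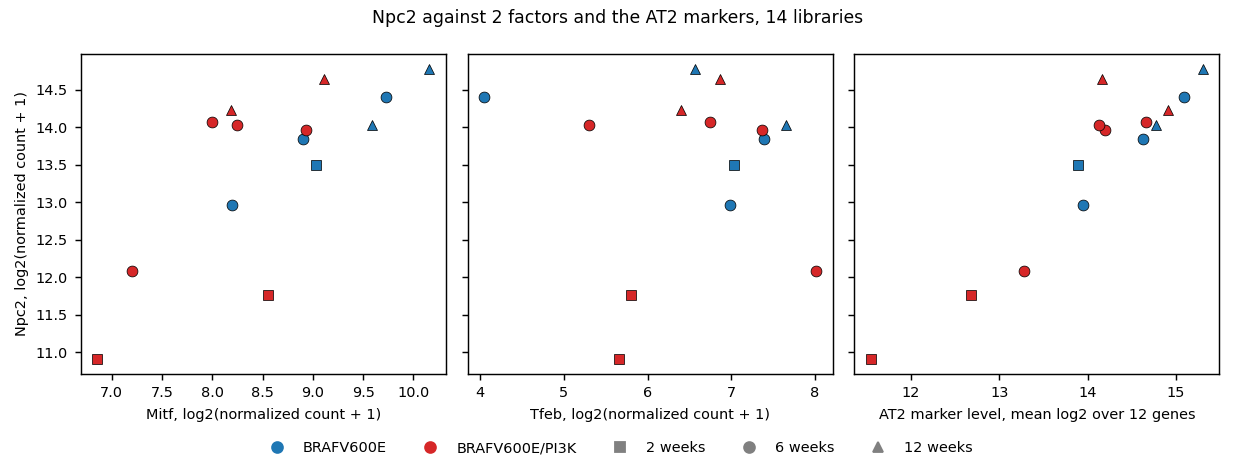
Npc2 (y axis, log2 of normalized count + 1) against Mitf, Tfeb and the AT2 marker level (x axes, log2) in 14 libraries, colored by genotype with a marker shape for each week. The Pearson r was 0.74 with Mitf and 0.94 with the AT2 markers, and in the Tfeb panel the points show no common slope.

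For Tfeb the largest positive values were those of Ctsl (r = 0.33), Smpd1, acid sphingomyelinase (r = 0.28), and Neu1, the lysosomal sialidase (r = 0.28), with a permutation p of 0.248 to 0.337. The lowest were Atp6v1b2, a catalytic-sector subunit of the pump (r = -0.77, rho -0.72, permutation p = 0.00102 and 0.00498), and Gla, alpha-galactosidase A (r = -0.48). Atp6v1b2 had a slope of -0.25 (SE 0.07, limma adjusted p = 1.00) and was the single lysosome gene with an unadjusted p under 0.05, beside 3.58% of all genes, and none was called (0% of all genes). For Tfe3 the highest were Gaa (r = 0.62, rho 0.72, permutation p = 0.0175 and 0.00491), Ctsz (0.48) and Ctsa (0.48) and the lowest were Ctsf (-0.28) and Atp6ap1 (-0.27). For Tfec the highest were Psap (0.55), Npc1, the membrane partner of Npc2 (0.43), and Hexa (0.43), and the lowest were Scarb2, the receptor that carries beta-glucocerebrosidase to the lysosome (-0.54), and Lamp1, a major glycoprotein of the membrane (-0.52). None was called for either factor (limma, 0% of all genes), and 1 gene each had an unadjusted p under 0.05, beside 4.78% for Tfe3 and 6.83% for Tfec. Tfec followed Mitf within the 8 BRAFV600E/PI3KαH1047R libraries (r = 0.86, rho 0.81, exact permutation p = 0.00838 and 0.0218), where the macrophage level had an r of 0.71 with Mitf and 0.67 with Tfec, and over the 6 BRAFV600E libraries r was -0.50.

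In the 9 libraries of the second table the order of the factors was another. The count of positive r was 9 of 35 for Mitf (median -0.18), 28 of 35 for Tfeb (median 0.11), 32 of 35 for Tfe3 (median 0.34) and 4 of 35 for Tfec (median -0.51), beside 48.8%, 48.4%, 49.8% and 44.8% of all genes. The mean log2 level of the 35 genes had an r of -0.40, 0.19, 0.52 and -0.65 with these factors, in the same order. The highest and lowest for Mitf were Ctsc (0.32), Gla (0.25) and Lamp2 (0.19), and Psap (-0.71) and Ctsd (-0.69), so Ctsc was the gene among the 3 highest in both tables. Its r was 0.93 without the 2 libraries farthest from the median of Mitf. The same step moved the r of Mitf with the AT2 level from -0.16 to 0.76. With the macrophage level it moved from -0.36 to -0.79. Ctsc had an r of 0.86 with the AT2 level over all 9 libraries, so the trimmed value cannot separate Mitf from the AT2 level. For Tfeb the highest and lowest were Cln3 (0.58), Glb1, beta-galactosidase (0.47), and Scarb2 (0.42), and Gla (-0.42) and Npc1 (-0.31). For Tfe3 they were Atp6v0d1 (r = 0.72, rho 0.85, exact permutation p = 0.0284 and 0.00607), Atp6ap1 (0.66) and Gaa (0.63), and Mcoln1 (-0.68) and Gla (-0.43). None of the 35 was called for Mitf, Tfeb or Tfe3 (limma, 0% of all genes each), and 3, 0 and 0 had an unadjusted p under 0.05, beside 2.42%, 2.49% and 10.4%.

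Tfec gave the strongest correlations in this table, most of them negative. Its values ran from 14 to 191 and had an r of -0.84 with the AT2 level. Mcoln1 (0.74), Gusb (0.59), and Lipa (0.23) were the highest, and Sqstm1, the autophagy receptor p62 (r = -0.86, rho -0.72, exact permutation p = 0.00383 and 0.0369), and Ctsc (-0.80) the lowest. Sqstm1 was the 1 of 35 genes called, with a slope of -0.21 (SE 0.07, limma adjusted p = 0.0491), beside 15.5% of all genes, and 10 of 35 had an unadjusted p under 0.05, beside 33.6%. Sqstm1 stayed called in 2 of 17 other settings, and with the AT2 level as a term its slope was -0.20 (limma adjusted p = 0.755). Sqstm1 shares 16.4% of its 31-base words with other genes.

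**Figure D5:**
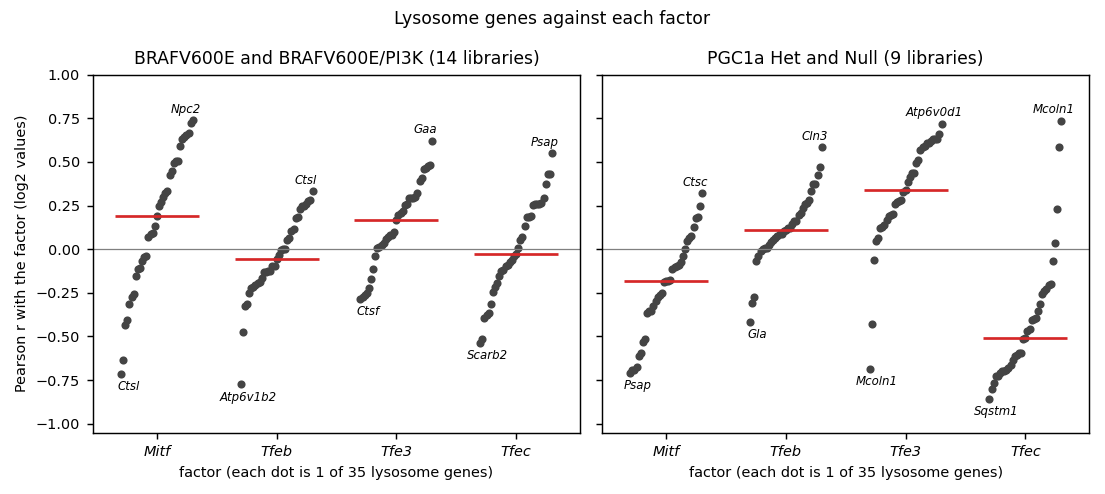
Pearson r (y axis) of each of the 35 lysosome genes (dots, in order of r) with each factor (x axis) in the 14 libraries of the first table and the 9 of the second, with the median as a red line and the highest and lowest gene named. For Mitf the median was 0.19 in the first table and -0.18 in the second, and for Tfeb -0.06 and 0.11.

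Genes around the pathway were read from lists of related genes. With PI3KαH1047R none of the other 33 lysosomal enzymes tested, 20 lysosomal membrane proteins, 15 V-ATPase subunits, 10 genes of mannose 6-phosphate sorting, 24 of mTORC1, Rag GTPases and folliculin, 22 of autophagy and 7 MITF targets of pigment cells passed (limma). The lowest p-values were those of Man2b1, lysosomal alpha-mannosidase (0.64, SE 0.21, limma adjusted p = 0.511), and of Slc38a9, an arginine sensor of mTORC1 at the lysosome (0.67, SE 0.23, adjusted p = 0.526). Of the 24 mTORC1 genes 18 were higher, among them Rragc (0.55, SE 0.22) and Tbc1d7 (0.73, SE 0.35). The mean log2 level of the 24 genes was 9.17 and 9.28 in the BRAFV600E/PI3KαH1047R libraries at 2 weeks and 9.23 in 6 week replicate 1. These were the 3 libraries of highest endothelial level. The level was 8.71 to 8.92 in the other 6 week BRAFV600E/PI3KαH1047R libraries and 8.72 and 8.77 at 12 weeks. In BRAFV600E libraries it ran from 8.66 to 8.89. The part of other cells in this was not tested. The lowest p-values of the remaining lists were those of Atp6v1c2, a V-ATPase subunit (-0.98, SE 0.34), Ap1g1, part of a clathrin adaptor (0.27, SE 0.14), and Vps18, a tethering factor of late endosomes (0.75, SE 0.32), with limma adjusted p-values of 0.554, 0.738 and 0.677. Second in their lists were Arsb (-0.49, SE 0.22), Cln8 (0.55, SE 0.23), Atp6v1g2 (0.52, SE 0.33), Gnptab (-0.44, SE 0.35) and Atg5 (-0.39, SE 0.19), with limma adjusted p-values of 0.677 to 0.821. Between 2 and 12 weeks Ctss, cathepsin S of antigen-presenting cells, rose by 3.09 (SE 0.64, limma adjusted p = 0.0420). The autophagy gene Atg9b, at a mean of 51.4 normalized counts, rose by 6.43 (SE 0.79, limma adjusted p = 0.00722). Ctss and Atg9b were the only calls among these lists between these weeks. They were 1 of 33 enzymes and 1 of 22 autophagy genes, beside 0.786% of all genes. Next by p were Lamp3 (2.12, SE 0.48, limma adjusted p = 0.0551), Rragb, a Rag GTPase at a mean of 33.5 normalized counts (-4.01, SE 0.92, adjusted p = 0.0566), Napsa (2.32, SE 0.55, adjusted p = 0.0605), Abca3 (1.92, SE 0.49, adjusted p = 0.0748), Galc, galactosylceramidase (1.34, SE 0.37, adjusted p = 0.0932), and the sorting receptor Sort1 (-1.34, SE 0.39, adjusted p = 0.100). Lamp3, Napsa and Abca3 encode proteins of lamellar bodies. Between 2 and 6 weeks Atg9b was also called (5.27, SE 0.71, limma adjusted p = 0.0139). Slopes on a factor called genes of these lists too, on Mitf in the first table and on Tfec in the second. On Tfec the lowest were Dct and Manba (limma adjusted p = 0.00462 and 0.00674). Of the pigment cell targets Mlana differed by -1.63 with PI3KαH1047R (SE 0.75, limma adjusted p = 0.725) at a mean of 34.9 normalized counts, and Pmel by 1.86 (SE 0.95, adjusted p = 0.736) at 12.1. Between BRAFV600E/PGC1αNull and BRAFV600E/PGC1αHet libraries Laptm5, a lysosomal protein of blood cells, had the lowest p of these lists (1.78, SE 0.41, limma adjusted p = 0.476), and no gene of these lists was called in that comparison. The second membrane protein by p was Gpnmb (1.94, SE 0.68), the enzymes were Ctss (1.498, SE 0.59) and Ctsk (1.33, SE 0.53), and the V-ATPase subunits were Atp6v0d2 (1.52, SE 0.57) and, with the opposite sign, Atp6v1g1 (-0.50, SE 0.21), all with a limma adjusted p of 0.998. The same adjusted p held for Sort1 (0.39) and Gga1 (-0.37) of sorting, Akt1s1 (0.50) and Ppp3cb (-0.26) of the mTORC1 list, Atg9b (-0.87) and Wipi2 (-0.34) of autophagy, and Mlana (1.29) and Cdk2 (-0.17) of the pigment cell targets. Macrophage markers had a median difference of 0.99 in this comparison, and their part in these values was not tested.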

How the data were processed

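The 23 libraries were single-end RNA-seq of sorted tdTomato+ cells, made with a low-input kit that does not mark strand and sequenced for 50 cycles. The authors processed the reads with FastQC, Salmon and DESeq2 against GRCm38 (versions not given in the sources used here), and deposited for each cohort a signal per gene and library, the DESeq2 normalized count, together with tables of their own comparisons, fold changes and p-values, which were not used. The values are not whole reads and their depth is unknown. Both tables were normalized separately and were never tested together. Samples were grouped by GEO's labels for genotype and week, and each library is from 1 mouse. The members and lists were chosen with earlier results of these data known.

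Genes with a mean of at least 10 normalized counts were tested on log2(value + 1) with limma 3.58.1 (R 4.3.3, trend), with Benjamini-Hochberg adjustment over all genes tested. A fold on this scale understates the change of low genes. The comparison of genotypes over all weeks had no other term, that of weeks had genotype as a term, and single weeks and interactions used a mean for each genotype and week. Slopes on a factor used the factor's log2 value alone. Single genes were also given a two-sided exact permutation test over libraries, and correlations an exact test or, over 14 libraries, 100000 permutations. A marker level is the mean log2 value over a list. A gene not overlapping between groups has every library of one group above every library of the other. The code was tested on simulated data. The text names the 4 factors, per comparison the genes called and the 5 with the lowest p, per factor and table the 3 lysosome genes with the highest and the 2 with the lowest r, and the 2 lowest p-values of a related list in the genotype comparisons. Some genes were named after their values were seen. They were Mcoln1 between 2 and 12 weeks, Ctsc, Npc2 and Atp6v0a1 at 6 weeks, and the genes that did not overlap. The related genes in comparisons of weeks and in slopes were also among them. Replicate numbers are shared between groups but did not pair the libraries: the correlation of same-numbered deviations was -0.28, -0.03 and -0.01 at 6 weeks, -0.15 at 12 weeks, and 0.21, -0.21, 0.14 and -0.47 in the second table. Alternatives were a pseudocount of 4, a minimum mean of 40, no filter, quantile normalization, a replicate block and each library left out. Others had marker levels, sex or week as terms. Added after seeing the data were the endothelial and AT2 levels as terms and the 3 libraries of highest endothelial level left out. The AT2 level was a term only for slopes on a factor, and in no comparison of genotypes or weeks.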

Additional observations from a re-analysis of the deposited data

Results flagged for a closer look

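Of 117 combinations of a member gene and a group of 4 or 5 libraries, 12 held a library far from the others of its group by Dixon's criterion, where about 1 in 20 (5.85 of 117) is flagged by chance. In BRAFV600E/PI3KαH1047R cells at 6 weeks, replicate 1, the library of highest endothelial level, had 4712 normalized counts of Ctsc (16923 to 18896 in the others), 4326 of Npc2 (15969 to 17223) and 367 of Cln3 (246 to 257), and replicate 4 had 751 of Sqstm1 (1213 to 1304). In BRAFV600E/PGC1αNull cells replicate 4 had 399.6 of Ctsa (791 to 891), 1349 of Ctsd (3879 to 4611) and 173 of Ctsz (333 to 375), and replicate 2 had 1605 of Sqstm1 (891 to 973) and 101 of Tfeb (34.7 to 41.0). In BRAFV600E/PGC1αHet cells replicate 5 had 944 of Cd63 (1331 to 1449) and 209 of Ctsz (299 to 334), and replicate 4 had 3605 of Scarb2 (2860 to 2977).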

How the results depend on the processing

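Over all settings no log2 difference or slope of a named gene passed the test in the opposite direction. Of 2839 refits of 135 single-gene results, 2741 kept their side of the threshold, 63 lost a call and 35 gained one, and 65 had another sign, none of them with a call reversed. The counts of called members shifted between settings, as did those of all genes. Between 2 and 12 weeks 3 members were called, and 0 with genes of any value, with the macrophage level as a term, with sex as a factor or without the 3 libraries of highest endothelial level, and 5 with the endothelial level as a term. Over all genes 138 were called, 1 to 269 in the other settings, and 0 (without BRAFV600E/PI3KαH1047R 12 week replicate 1) to 493 (without its 6 week replicate 1) leaving out 1 library. Leaving out 1 library gave 0 to 5 members: 0 without either BRAFV600E/PI3KαH1047R library at 2 weeks, BRAFV600E replicate 2 or BRAFV600E/PI3KαH1047R replicate 3 at 6 weeks, or BRAFV600E replicate 2 or either BRAFV600E/PI3KαH1047R library at 12 weeks, 1 without BRAFV600E/PI3KαH1047R replicate 2 at 6 weeks, and 5 without its replicate 1 at 6 weeks or BRAFV600E replicate 1 at 12 weeks. Between 2 and 6 weeks the count of 0 became 3 with the endothelial level as a term and 0 to 2 leaving out 1 library (2 without the BRAFV600E library at 2 weeks), while all genes went from 9 to as many as 198 and to between 1 and 102. Without BRAFV600E/PI3KαH1047R 6 week replicate 1 the genotype difference at 2 weeks called 2 members and its change from 2 to 6 weeks 1, with 0 without any other library, while the calls over all genes rose from 3 to 268 and from 0 to 30. For the slope on Mitf the count of 1 became 4 at a minimum mean of 40, 3 with quantile normalization, and 0 with genes of any value, group means, the endothelial or AT2 level as terms, or without the 3 libraries, beside 671 over all genes that became 0 to 913 in these settings and 0 to 1335 leaving out 1 library. Leaving out 1 library gave 0 to 6 members, the highest without BRAFV600E/PI3KαH1047R 2 week replicate 1, and 0 without its 2 week replicate 2, 6 week replicate 1 or 3, or BRAFV600E 6 week replicate 1 or 3 or 12 week replicate 2. For the slope on Tfec in the second table the count of 1 became 0 with genes of any value, quantile normalization, group means, or the macrophage, endothelial or AT2 level as terms, and 0 to 2 leaving out 1 library (2 without BRAFV600E/PGC1αNull replicate 3 and 0 without any of the other 8), beside 2693 over all genes that became 0 to 2629 in the other settings and 1564 to 3464 leaving out 1 library. The cause of these shifts was not tested. With the replicate number as a block 0 members were called in every comparison of genotypes, as without it, and 0 with the crossed numbering at 12 weeks. The 2 week genotype difference and its changes could not be fitted without the single BRAFV600E library at 2 weeks or without the 3 libraries. The unknown depth and the 1 to 5 libraries a group limit what could be seen.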
